A study of Danio rerio with 7 samples.

Results

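The midbrain-hindbrain boundary genes Otx, Gbx, En and pax2a were followed in 7 bulk RNA-seq libraries of the zebrafish hindbrain at 24 hours post fertilisation (hpf). The set had 10 genes, taken by name: otx1, otx2a, otx2b, gbx1, gbx2, en1a, en1b, en2a, en2b and pax2a. Among the 32189 gene IDs of the count table, 7 of the 10 had a single ID. The names table carried otx1, otx2a, gbx1, gbx2 and en1b directly. It gave OTX2 and EN1 to 1 further ID each, which were taken as otx2b and en1a because the other copy had its own entry. The remaining 3 genes were dropped as members, since the symbol EN2 stood at 2 IDs and PAX2 at 2 IDs without the letter of the copy. These IDs are described beside the members under their numbers. The EN2 pair stands for en2a and en2b in an unknown order, and pax2a is 1 of the PAX2 pair.

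Each library was made from the hindbrain dissected from a single embryo, which the labels describe as including surrounding tissue. The controls, called Cnt, were 4 wild-type embryos of LondonAB, and the 3 Fgf20aHOM libraries were homozygous for the fgf20a mutation and came from crosses of homozygous parents. The strain of the mutants is given only as the mutant line, so line and genotype cannot be told apart, and there were no littermate controls. The quality of each dissection was checked by qPCR against β-Actin, and the primer list was not used here. The Fgf20aHOM columns carried the numbers 2 to 4 in place of the 1 to 3 of the sample titles, and are called F2, F3 and F4. The comparison asked which hindbrain genes depend on Fgf20a. The boundary genes were also set beside each other as markers of the front of each dissection.

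At the front of the hindbrain lies the isthmic organiser, a signalling centre at the junction with the midbrain. Otx factors are homeodomain proteins of the forebrain and midbrain, and Gbx factors are their counterparts in the anterior hindbrain. They repress each other, and their common border sets the position of the organiser. Engrailed homeodomain proteins and the paired-box factor Pax2a are expressed across the border and maintain the Fgf8 and Wnt1 signals of the organiser. Several of these genes have further sites of expression, such as the otic vesicle for Otx1, Gbx2 and Pax2a, and inhibitory interneurons for Engrailed-1 and Pax2.

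The libraries held 59800936 to 69801072 counts in Cnt and 52900433 to 55915518 in Fgf20aHOM, so every mutant library was smaller than every control library. A gene at 0 could have had up to 3 counts, equal to a normalised count of 2.75 to 3.40, and this limit covers counting error only. Normalised counts are counts scaled by depth and TMM factors to the mean library. The labelled tissue was checked against its markers. All 5 genes of the neural list (such as sox3, sox2 and elavl3) and all 7 of the rhombomere 1 to 4 list with a single ID were detected and tested. The eye genes rx1 and rx2 had 0 counts in all 7 libraries. The transcripts of fgf20a did not serve to check the genotype, since the symbol FGF20 stood at 2 IDs whose groups overlapped, with normalised counts of 131 to 390.2 in Cnt and 181 to 270.1 in Fgf20aHOM for the first, and 207 to 909 and 269 to 546 for the second.

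The hindbrain-side genes gbx1 and gbx2 were well detected in every dissection, whereas the midbrain-side Otx genes were detected at low counts and varied widely from embryo to embryo. The gene en1b was detected in all libraries, en1a in only 2, and an EN2 transcript reached a high count in a single control embryo. None of the members passed the test between genotypes. In bulk samples, fewer cells of a type and less RNA per cell cannot be told apart, so a low value of Otx or En may be either.

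**Figure D1:**
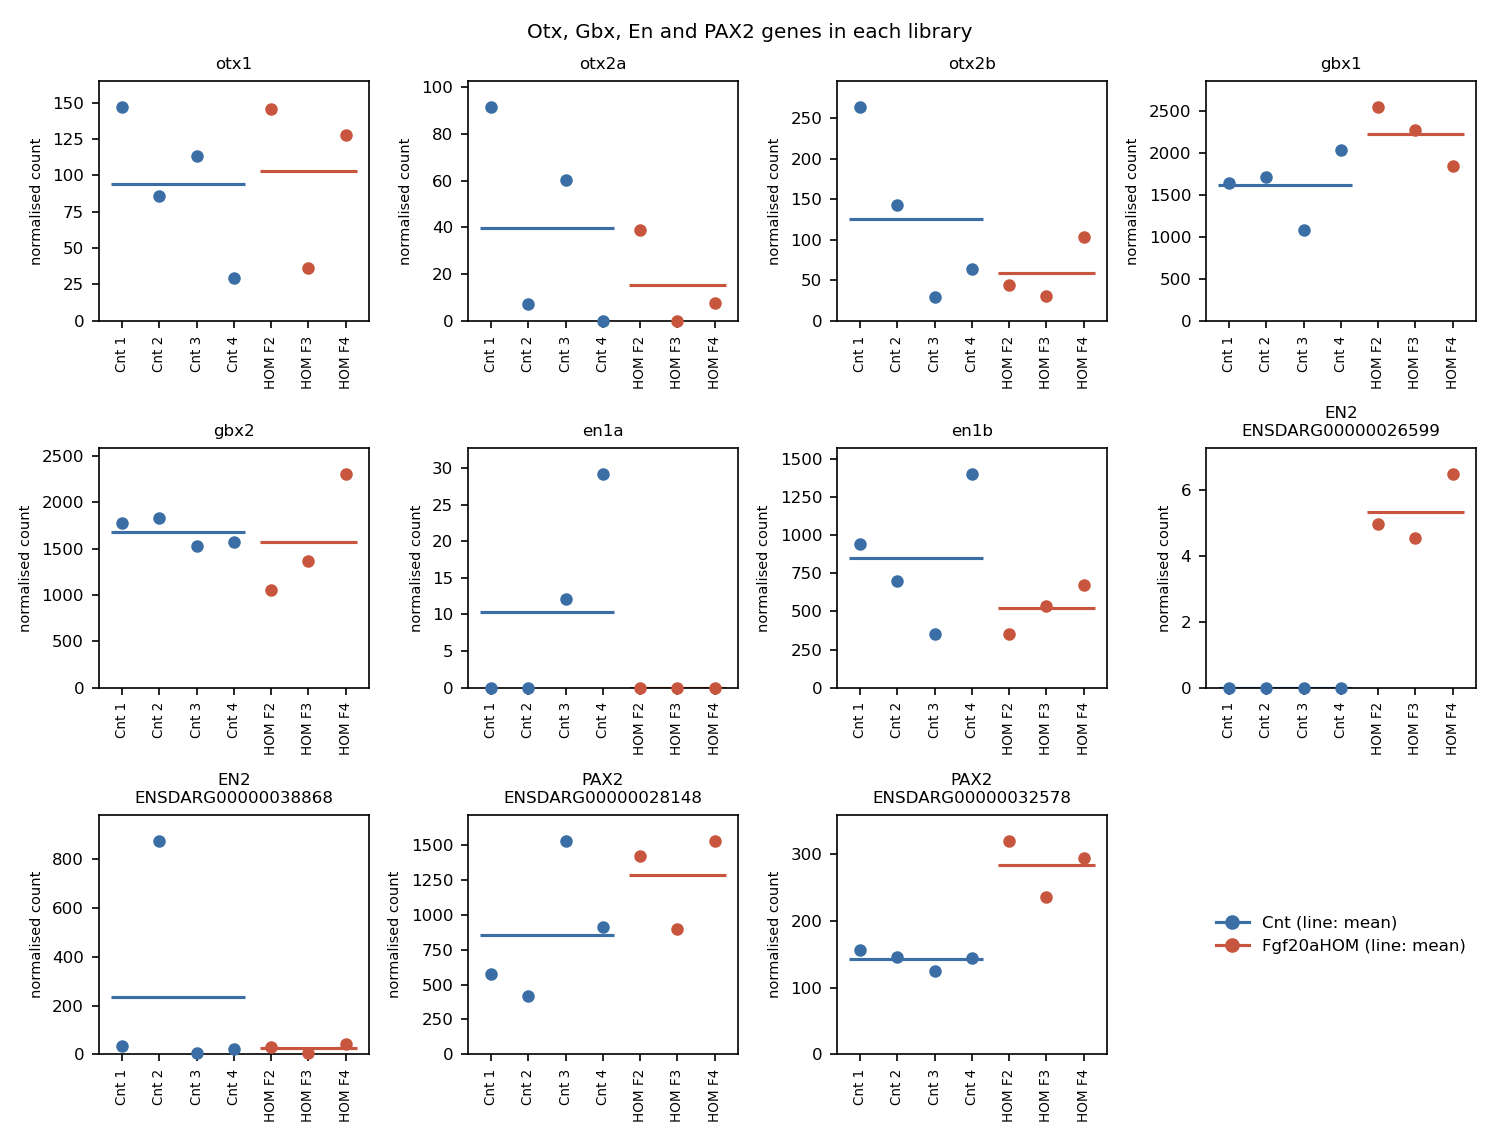
Normalised counts (y axes from 0, a separate scale for each panel) of the 7 members and of the EN2 and PAX2 IDs in the 4 Cnt (blue) and 3 Fgf20aHOM (red, HOM F2 to F4) libraries, with a line at each group mean. EN2 ENSDARG00000038868 lies at 876 in Cnt 2 and at 44.4 or less in the other 6 libraries, and gbx2 lies between 1055.5 and 2307.

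Among the Otx genes, otx2b (ENSDARG00000011235), which keeps midbrain identity ahead of the boundary, measured 264, 143, 29.7 and 64.2 in Cnt 1 to 4 (normalised counts). In Fgf20aHOM F2, F3 and F4 it had 43.9, 30.6 and 103. The 2 highest values were those of Cnt 1 and Cnt 2, and the groups overlapped. The mean was 125 ± 104 for Cnt (SD, n = 4) and 59.1 ± 38.5 for Fgf20aHOM (SD, n = 3). The log2 fold change was -1.08 ± 0.85 (SE), and the gene did not pass the edgeR quasi-likelihood test (Benjamini-Hochberg adjusted p = 0.578). Without Cnt 1 the log2 fold change was -0.42, and without F4 it was -1.74.

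The gene otx1 (ENSDARG00000094992), expressed in the midbrain and also in the otic vesicle, measured 147, 86.1, 113 and 29.2 in Cnt 1 to 4 (normalised counts). It had 146, 36.3 and 128 in Fgf20aHOM F2, F3 and F4. Cnt 4 and F3 were low, and the other 5 libraries lay between 86.1 and 147. The log2 fold change, 0.14 ± 0.74 (SE) with an edgeR adjusted p of 0.953, had no stable direction, since it was -0.11 without Cnt 4, -0.19 without F2 and -0.044 without F4.

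The third gene, otx2a (ENSDARG00000030703), had 91, 8, 65 and 0 counts in Cnt 1 to 4. In F2, F3 and F4 it had 39, 0 and 7 counts. It was undetected in Cnt 4 and F3, the libraries in which otx1 was lowest. Its log2 fold change, -1.35 ± 1.79 (SE) with an edgeR adjusted p of 0.760, has an error larger than itself. It was -0.69 without F3, -3.345 without F2 and -3.36 with limma-voom. Summed over the 3 genes, Otx counts were 499, 258, 219 and 96 in Cnt 1 to 4 and 229, 59 and 220 in F2, F3 and F4. Both groups thus held an embryo with few Otx reads, and the highest sum was that of Cnt 1.

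The Gbx genes differed less between wild-type embryos. The gene gbx2 (ENSDARG00000002933), which maintains the border with Otx2, measured 1776, 1831, 1529 and 1571 in Cnt 1 to 4 (normalised counts). In F2, F3 and F4 it had 1055.5, 1367 and 2307, so the mutant libraries lay on both sides of the controls. The log2 fold change was -0.089 ± 0.29 (SE, edgeR adjusted p = 0.916), and its sign turned to 0.13 without F2 and to 0.021 without F3.

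The gene gbx1 (ENSDARG00000071418), which in zebrafish marks the future hindbrain from gastrulation onwards, measured 1643, 1712, 1084 and 2039.6 in Cnt 1 to 4 (normalised counts). It had 2549, 2281 and 1851 in F2, F3 and F4. The 2 highest values were mutant, but F4 was below Cnt 4 and the groups overlapped. With means of 1619.7 ± 397 and 2227 ± 352 (SD, n = 4 and 3), the log2 fold change was 0.46 ± 0.27 (SE, edgeR adjusted p = 0.444).

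Of the Engrailed-1 genes, en1b (ENSDARG00000098730) measured 940.4, 702, 352 and 1403 in Cnt 1 to 4 (normalised counts). In F2, F3 and F4 it had 355, 534 and 677. Cnt 4 was the highest library, whereas it was the lowest for otx1, and Cnt 3 and F2 were the lowest. The mean was 849 ± 442 for Cnt (SD, n = 4) and 522 ± 161 for Fgf20aHOM (SD, n = 3), and the log2 fold change of -0.70 ± 0.46 (SE) did not pass the edgeR test (adjusted p = 0.497). Its copy en1a (ENSDARG00000014321) had 13 counts in Cnt 3, 30 in Cnt 4 and 0 in the other 5 libraries, and was below the filter on low counts.

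The EN2 IDs stood for the Engrailed genes en2a and en2b, which mark the boundary and the first rhombomere. ENSDARG00000038868 had 34, 956, 5 and 24 counts in Cnt 1 to 4. In F2, F3 and F4 it had 31, 5 and 41 counts. Cnt 2 thus carried 956 counts where no other library exceeded 41. The log2 fold change, -3.11 ± 1.69 (SE) with an edgeR adjusted p of 0.416, rested on this library and was 0.38 without it (edgeR adjusted p = 0.891). DESeq2 gave this ID no p-value. The other ID, ENSDARG00000026599, had 0 counts in all Cnt libraries and 5, 4 and 6 counts in F2, F3 and F4, close to the limit of 3 counts, and was not tested.

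The PAX2 IDs include pax2a, which is needed for the boundary to form and also marks the otic vesicle and interneurons. ENSDARG00000032578 measured 156, 147, 125 and 145 in Cnt 1 to 4 (normalised counts). In F2, F3 and F4 it had 319.9, 236 and 295. All 3 mutant libraries were above all 4 controls, with means of 143 ± 12.9 and 283 ± 43.1 (SD, n = 4 and 3). The log2 fold change of 0.99 ± 0.39 (SE) had an unadjusted p of 0.0307 and did not pass after adjustment (edgeR adjusted p = 0.262, DESeq2 adjusted p = 0.0669). ENSDARG00000028148 had 575, 418, 1529.5 and 914 in Cnt 1 to 4 and 1425, 899.6 and 1531 in the mutants. Its groups overlapped, and the log2 fold change was 0.58 ± 0.43 (SE, edgeR adjusted p = 0.557). Whichever of them is pax2a, its fitted change was positive and not called.

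To be called, a gene needed an adjusted p no higher than 0.01, a change of 2-fold or more, and over 30 normalised counts in every library of either genotype. By this rule 0 of the 6 members that passed the filter were called by edgeR, against 0.439% of the 19589 genes tested. DESeq2 also called 0 members, against 2.55% of all genes it tested. At an unadjusted edgeR p under 0.05 there were 0 of 6 members, against 15.6% of all genes. The groups overlapped in all 6, and over all tested genes they did not overlap in 17.5%. With 6 genes, these counts cannot show that the members were unchanged. The EN2 and PAX2 IDs are outside these counts. Of those tested, PAX2 ENSDARG00000032578 had groups that did not overlap and an unadjusted edgeR p of 0.0307, and the others overlapped. The fitted change was positive in 2 members and negative in 4, with a median log2 fold change of -0.40, where that of all tested genes was -0.048. The difference between these medians was not tested.

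**Figure D2:**
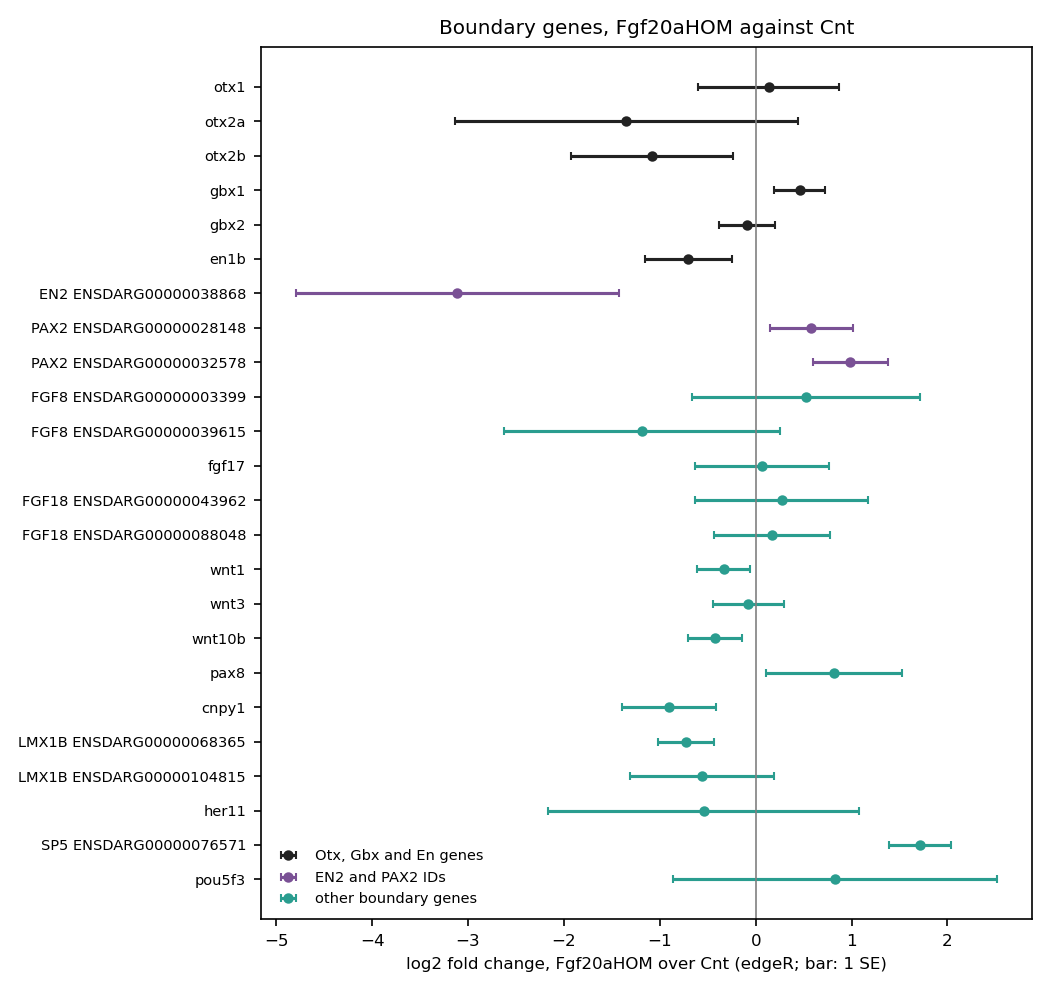
Fitted log2 fold changes of Fgf20aHOM over Cnt (x axis, edgeR) with bars of 1 SE for the tested members (black), the EN2 and PAX2 IDs (purple) and other boundary genes (green), 1 gene per row. The 6 members lie between -1.35 and 0.46, and SP5 ENSDARG00000076571 lies highest at 1.71.

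Wild-type embryos differed more in otx1, otx2b and en1b than in the Gbx genes. Among the 4 wild-type libraries the highest value exceeded the lowest by 8.87 times for otx2b, 5.03 times for otx1, 3.99 times for en1b, 1.88 times for gbx1 and 1.198 times for gbx2. This order did not hold in the 3 mutant libraries, where the same ratio was 2.19 for gbx2 and 1.91 for en1b. The median over all tested genes detected in every Cnt library was 2.15. Of those genes, 90.8% had a smaller spread than otx2b and 1.80% a smaller spread than gbx2. Among the EN2 and PAX2 IDs the spread was 189 times for EN2 ENSDARG00000038868, 3.66 times for PAX2 ENSDARG00000028148 and 1.24 times for PAX2 ENSDARG00000032578. Summed Gbx counts were 2815 to 3868 per library and summed Otx counts 59 to 499, and the part of counting error in the spread was not tested.

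**Figure D3:**
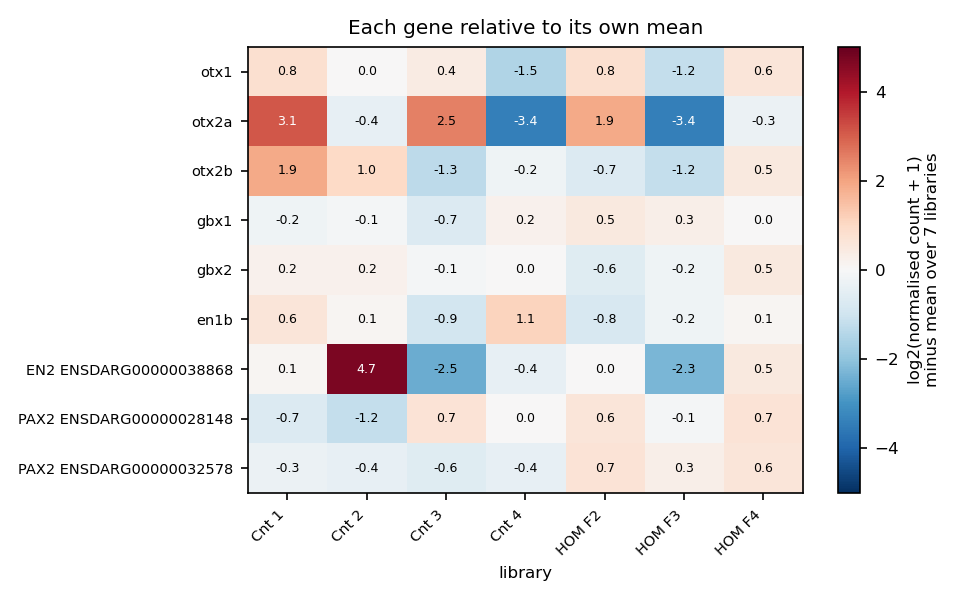
Heat map of log2(normalised count + 1) minus the mean of each gene over the 7 libraries (colour and printed value), with genes as rows and libraries as columns (HOM stands for Fgf20aHOM). EN2 ENSDARG00000038868 is 4.7 above its mean in Cnt 2, and otx2a is 3.4 below its mean in Cnt 4 and F3.

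Midbrain-side, boundary and hindbrain-side genes were set against each other by ratios within a library, which do not depend on scaling between libraries. They were compared between libraries only, because the genes differ in length. Summed Otx counts were 14.7%, 6.67%, 7.78% and 2.59% of summed Gbx counts in Cnt 1 to 4. They were 6.33%, 1.83% and 5.73% in F2, F3 and F4. On the log2 scale this is -3.90 ± 1.03 for Cnt (SD, n = 4) and -4.61 ± 0.98 for Fgf20aHOM (SD, n = 3). Cnt 1 was the highest and F3 the lowest, and the groups overlapped.

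The En1 counts (en1a and en1b) were 27.5%, 19.8%, 13.9% and 39.7% of Gbx counts in Cnt 1 to 4 and 9.85%, 14.6% and 16.3% in F2, F3 and F4. The log2 ratios were -2.09 ± 0.65 for Cnt (SD, n = 4) and -2.91 ± 0.38 for Fgf20aHOM (SD, n = 3). Of the controls, only Cnt 3 lay within the range of the mutants. With both EN2 IDs added, Cnt 2 reached 44.5% and was the highest library, followed by Cnt 4 at 40.3%. The order of the libraries by Otx therefore differed from the order by En. Cnt 4 was the second lowest for Otx over Gbx and the highest for En1 over Gbx.

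**Figure D4:**
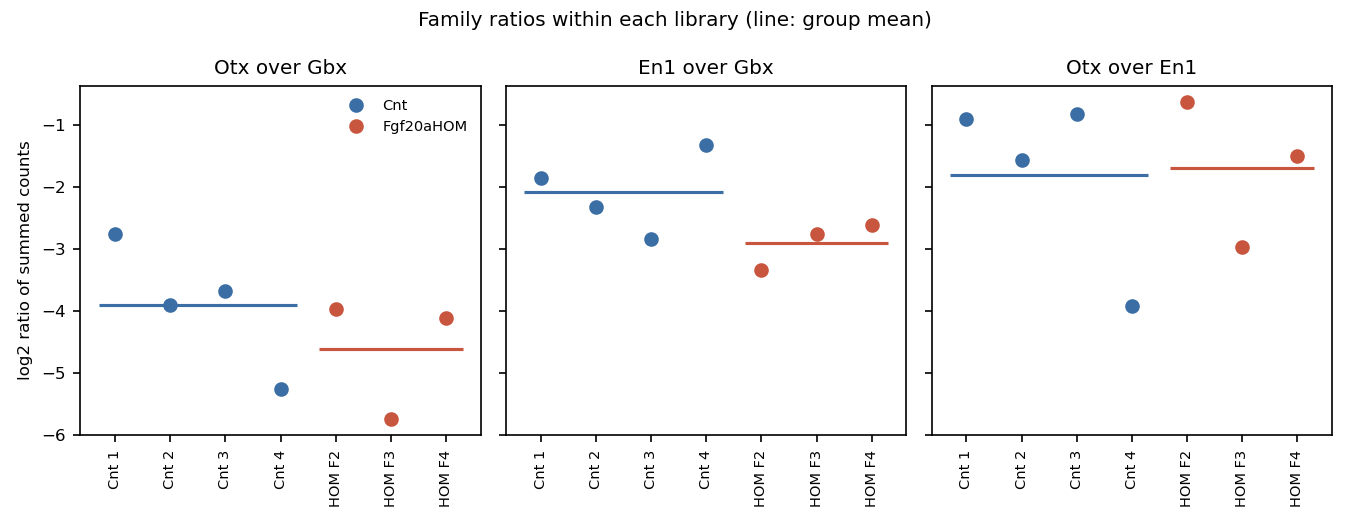
Log2 ratios of summed counts within each library (y axis) for Otx over Gbx, En1 over Gbx and Otx over En1, with Cnt in blue, Fgf20aHOM (HOM) in red and a line at each group mean. Otx over Gbx spans -5.75 to -2.77, and En1 over Gbx spans -3.34 to -1.33.

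Genes of other positions were set beside these values. Of the list for the forebrain, midbrain and eye, 7 of the 15 genes with a single ID passed the filter. By edgeR or DESeq2 0 were called, and 1 had an unadjusted edgeR p under 0.05, against 15.6% of all genes. The fitted change was positive in 5 and negative in 2, among them dlx5a at -0.52. The summed normalised counts overlapped (2980.1 to 6308 in Cnt, 4091 to 6764 in Fgf20aHOM). The largest terms of this sum were mab21l2, with means of 2184 in Cnt and 2782 in Fgf20aHOM, and dlx5a, with 1820 and 1266. The part of tissues beside the forebrain and midbrain in this sum was not tested. The telencephalic gene foxg1a, also expressed in the ear, measured 551, 499, 192 and 144 in Cnt 1 to 4 and 634, 440.1 and 501 in F2, F3 and F4, and was lowest in Cnt 3 and Cnt 4. The ventral forebrain and eye gene vax1, named after its values were seen, was at 0 in all 4 Cnt libraries and at 15.0, 37.4 and 18.4 in F2, F3 and F4. It was the gene with an unadjusted p under 0.05. Because vax1 passed the filter only through the mutant libraries, its edgeR adjusted p of 0.107 was not read as a result. The midbrain symbol DMBX1 stood at 2 IDs. ENSDARG00000009922 measured 41.2, 140.1, 136 and 98.2 in Cnt 1 to 4 (normalised counts) and 357, 107 and 265 in F2, F3 and F4. It was lowest in Cnt 1, the library with the most Otx reads. The other ID, ENSDARG00000002510, had at most 15 counts, in F4. The authors also report dmbx1a in noradrenergic neurons of the hindbrain at a later stage.

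In the rhombomere 1 to 4 list, the fitted change was positive in 3 of the 7 tested genes and negative in 4. The median log2 fold change of that list was -0.135. At the rear, all 9 genes of the posterior hindbrain and spinal cord list had a positive fitted change, against 9275 of all 19589 genes tested. The median log2 fold change was 1.14, the value of hoxb6b (SE 1.66), which was at 0 in Cnt 2 and Cnt 4. The genes hoxb6a and hoxb8a were also at 0 in some controls. Of the 9 genes, 0 were called by edgeR, and DESeq2 called 1 (hoxd3a). An unadjusted p under 0.05 was found in 3, against 15.6% of all genes. Their summed normalised counts were 24328 to 32864 in Cnt and 37941.5 to 42409.6 in Fgf20aHOM and did not overlap. The largest terms of these sums were hoxa3a and hoxb3a, with log2 fold changes of 0.172 and 0.625. By gene, the groups did not overlap for hoxb3a and hoxd3a and overlapped for the others. Over all tested genes, they did not overlap in 17.5%. The gene hoxd4a, a marker of rhombomere 7, had 1090.25, 900.3, 5296 and 7444 in Cnt 1 to 4 and 4832, 8552 and 5635 in F2, F3 and F4. Cnt 1 and Cnt 2, with the most otx2b, had the least hoxd4a. Among the controls hoxb4a was also lowest there (432 and 295), whereas hoxa3a and hoxb3a were lowest in Cnt 4 (10308 and 7086). The other Otx genes did not share the order of otx2b, since otx1 and otx2a were higher in Cnt 3 (113 and 60.3) than in Cnt 2 (86.1 and 7.33). The part of the position of each dissection in the values of the boundary genes was not tested.

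Markers of other tissues that express members were set beside them as well. Of the otic vesicle list, 11 of 12 genes were tested, 0 were called by edgeR, and DESeq2 called 1 (stm). An unadjusted edgeR p under 0.05 was found in 4, against 15.6% of all genes. The summed normalised counts were 26089 to 50328 in Cnt and 17306 to 20334 in Fgf20aHOM. The sum was lower in all mutants, and by gene the fitted change was negative in 7 and positive in 4. Groups did not overlap for oc90 and stm and overlapped for the other otic genes. Both are among the largest terms of the otic sum, and stm ranged from 1703 to 20061 in Cnt. The inhibitory interneuron list had summed counts of 3561 to 5002 in Cnt and 3419.65 to 4179 in Fgf20aHOM, which overlapped. The largest term of this sum was lbx1b, with means of 3193 in Cnt and 2154 in Fgf20aHOM. By gene, 6 of the 8 tested had a positive fitted change with 0 called and 0 with an unadjusted p under 0.05. For lhx1a, lhx5 and slc32a1 all mutants were above all controls, and the others overlapped. Over all tested genes, 17.5% had groups that did not overlap. The part of these tissues in the values of the members was not tested.

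In the organiser network around the members no gene with a single ID was called between the genotypes. Of 18 listed genes, 10 had a single ID, and 8 of them were tested. By edgeR 0 were called, against 0.439% of all genes, and by DESeq2 0, against 2.55%. An unadjusted edgeR p under 0.05 was found in 0, against 15.6% of all genes. With 8 genes, these counts cannot show that the network was unchanged. The median log2 fold change of the 8 genes was -0.21. Symbols without a single ID are outside these counts. Of these, FGF8, FGF18, LMX1B and SP5 are described below, and PAX2 is described above. Among the signals, wnt1, which maintains Engrailed at the boundary, had mean normalised counts of 3077 ± 542 for Cnt (SD, n = 4) and 2442 ± 781 for Fgf20aHOM (SD, n = 3). Its log2 fold change was -0.33 ± 0.27 (SE, edgeR adjusted p = 0.600). Its neighbour wnt10b had 1608 ± 491 and 1194 ± 76.7 (SD, n = 4 and 3, edgeR adjusted p = 0.501), and wnt3 had 680.4 ± 223 and 645 ± 193 (SD, n = 4 and 3, edgeR adjusted p = 0.948). The part of cells outside the organiser in the counts of the network genes was not tested.

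Fgf17, a further ligand of the organiser, had its highest normalised count in Cnt 2 (358), as EN2 did, and its lowest in Cnt 1 (48.3). Its log2 fold change was 0.063 ± 0.70 (SE, edgeR adjusted p = 0.977). The symbol FGF8 stood at 2 IDs. ENSDARG00000003399 had 0 counts in Cnt 1 and 243 to 494 in the other 6 libraries, and ENSDARG00000039615 had at most 37 counts, in Cnt 2. The symbol FGF18 also stood at 2 IDs. The log2 fold change was 0.27 ± 0.90 (SE, edgeR adjusted p = 0.917) for ENSDARG00000043962. For ENSDARG00000088048 it was 0.17 ± 0.61 (SE, edgeR adjusted p = 0.924). The Fgf receptor regulator cnpy1 had a normalised count of 461 ± 214 for Cnt (SD, n = 4) and 247 ± 70.1 for Fgf20aHOM (SD, n = 3). By library it was 612, 171, 429 and 633 in Cnt 1 to 4 and 305, 169 and 266 in F2, F3 and F4, so Cnt 2 and F3 were the lowest. Its fitted log2 difference was -0.90 ± 0.49 (SE), which did not pass (edgeR adjusted p = 0.412).

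Several factors that act within boundary cells had low counts. The gene her11, which keeps these cells as progenitors, had counts of 0, 72, 27 and 1 in Cnt 1 to 4 and 5, 24 and 14 in the mutants, and was again highest in Cnt 2. Its partner her5 had at most 6 counts in Cnt and 8 to 18 in Fgf20aHOM. The groups did not overlap, but the gene was below the filter. The gene pax5 had at most 46 counts, in Cnt 3, and 0 in 3 libraries. For pax8 the log2 fold change was 0.82 ± 0.71 (SE, edgeR adjusted p = 0.620), and for pou5f3, with at most 37 counts, 0.83 ± 1.69 (SE, edgeR adjusted p = 0.851).

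For the symbols LMX1B and SP5 of the list, 1 ID each had an unadjusted edgeR p under 0.05, against 15.6% of all genes. The other ID of LMX1B and the IDs of FGF8 and FGF18 did not. LMX1B ENSDARG00000068365, 1 of the IDs of a factor that maintains wnt1 expression, had 3732 ± 957 for Cnt (SD, n = 4) and 2252 ± 637 for Fgf20aHOM (SD, n = 3). Its log2 fold change was -0.73 ± 0.29 (SE, edgeR adjusted p = 0.266). SP5 ENSDARG00000076571, a zinc finger factor that responds to Wnt signals, measured 284, 328, 399 and 211 in Cnt 1 to 4 (normalised counts) and 1217, 1018 and 773 in F2, F3 and F4. All mutants were above all controls, with means of 305 ± 78.9 and 1003 ± 222 (SD, n = 4 and 3). This log2 difference of 1.71 ± 0.33 (SE) did not pass the limit of 0.01 with the edgeR quasi-likelihood test (adjusted p = 0.0356) and was called by DESeq2 (adjusted p = 3.1e-05) and by the edgeR likelihood ratio test (adjusted p = 0.0019). The RefSeq table lists sp5a and sp5b in zebrafish, so the copy is not known.

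Genes with a pattern over the 7 libraries most like that of the members were found by the root mean square difference of centred log2 values, among 13667 genes with a symbol and a mean normalised count of at least 100. For the mean of the 3 Otx genes the closest were MAP3K15 (0.591), pargl (0.595), ANKRD13D (0.616), MAN2A1 (0.658) and ADCY9 (0.682), where the median gene differed by 1.36. For Gbx they were btbd8 (0.0638), STIP1 (0.0850), TRIM44 (0.0885), ZNF410 (0.0956) and SPRING1 (0.0995), with a median of 0.493. For en1b they were rccd1 (0.167), tmem41aa (0.168), DDHD2 (0.169), zgc:85777 (0.174) and RBKS (0.175), with a median of 0.83. Among the members themselves the closest pairs were gbx1 with gbx2 and gbx2 with en1b (both 0.586), and PAX2 ENSDARG00000032578 was closer to gbx1 (0.351). The value of 0.586 lies between single genes, whereas the median of 0.493 is a distance from the Gbx mean, so they cannot be compared. From their own means, gbx1 and gbx2 went opposite ways in F2 (0.483 and -0.593) and F3 (0.323 and -0.22). Genes that vary little come out close by this measure, so closeness does not show that they vary together. The points share library depth and the same 7 embryos, and no test was made.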

How the data were processed

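Bulk RNA-seq was analysed in 4 Cnt and 3 Fgf20aHOM libraries, each from 1 embryo. The authors amplified cDNA (NuGEN Ovation), made Nextera XT libraries, and aligned paired-end reads with STAR 2.5.1b through RSEM 1.2.31 to GRCz10 with Ensembl transcripts. The deposited values are estimated counts per gene from RSEM, which the authors rounded to integers without scaling for depth. RSEM divides reads shared by similar copies, so paralogs are less certain, and strand use and molecular identifiers are not given in the sources used here.

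Of 32189 IDs, 26350 had a symbol in the names table. Genes passing filterByExpr (19589) were tested with edgeR 4.0.16 (quasi-likelihood, robust, TMM, genotype only, two-sided, Benjamini-Hochberg) in R 4.3.3. Normalised counts are scaled to the mean TMM library size, and SEs derive from the fold change and F. The script was tested on simulated data. Alternatives were DESeq2 1.42.0, limma-voom 3.58.1, the likelihood ratio test, other scalings and filters, 1 surrogate variable (sva 3.50.0) and leaving out each library. All members were named, with network genes and the 5 genes closest to each of 3 patterns (pseudocount 1). Most other genes of context lists were named from those of highest count. The midbrain IDs DMBX1, 1 of several unresolved list symbols, and the untested her5 and pax5 were chosen after their values were seen. So were hoxb4a, hoxb6a, hoxb6b, hoxb8a, lhx5 and slc32a1. The members and lists were chosen with earlier results of these data known. P-values weigh the difference between the groups against the spread between these embryos, and do not separate genotype from line. No gene position or sequence was used here.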

Additional observations from a re-analysis of the deposited data

Results flagged for a closer look

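Extreme libraries were sought among the 4 Cnt libraries in 13 measures, the normalised counts of the members, of 1 EN2 ID detected in Cnt and of both PAX2 IDs, and 3 family ratios. The gap of the most distant library was divided by the range of the group and compared with Dixon's critical value for 4 samples at 95%. Chance would single out about 1 in 20 such measures, or 0.650 of 13, if they were normal and independent. The counts were not log-transformed and the ratios were made from the same members, so this number is a rough guide. Of the 13 measures, 1 was singled out.

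This was EN2 ENSDARG00000038868 in Cnt 2, with a normalised count of 876 against 20.7 ± 15.0 (SD, n = 3) in the remaining controls. The gap was 0.966 of the range. Cnt 2 also had the highest normalised counts of fgf17 (358) and her11 (65.9) and the second highest otx2b, and its gbx2 of 1831 was close to that of Cnt 1 with 1776. Other boundary genes were low there. Of the controls Cnt 2 had the lowest cnpy1 (171), its PAX2 ENSDARG00000028148 (418) was the lowest of all 7 libraries, and its FGF8 ENSDARG00000003399 (223) was the lowest of the 6 that detected this ID. The part of the position of this dissection was not tested.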

How the results depend on the processing

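No paired analysis was possible, because each library came from a separate embryo and the groups were not littermates, so the replicate block was not run. The Fgf20aHOM columns also carry numbers that differ from those of the sample titles. Over 15 alternatives, some of which dropped genes of low count, 0 members and 0 of the EN2 and PAX2 IDs were called, and of 128 values for them 8 changed sign. For otx1 the log2 fold change was -0.57 with limma-voom, -0.33 with 1 surrogate variable and -0.57 to 0.59 over all alternatives, including -0.11 without Cnt 4, -0.19 without F2 and -0.044 without F4. With 1 library left out, gbx2 ranged from -0.47 (without F4) to 0.13 (without F2), with 0.021 without F3, and EN2 ENSDARG00000038868 ranged from -3.66 (without F4) to 0.38 (without Cnt 2). Over all alternatives the log2 fold change of otx2a ranged from -3.36 to -0.69, of otx2b from -1.74 to -0.42, of en1b from -0.96 to -0.23 (1 surrogate variable), of gbx1 from 0.31 to 0.63 and of PAX2 ENSDARG00000032578 from 0.88 (limma-voom) to 1.14. The adjusted p of SP5 ENSDARG00000076571 ranged from 3.1e-05 (DESeq2) to 0.146 (without F2).

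The count of called genes was 86 with edgeR, 634 with DESeq2, 379 with the likelihood ratio test and 42 with 1 surrogate variable. It was 15 to 69 when 1 library was left out. Of the context genes with a single ID, DESeq2 called 2 (hoxd3a higher and stm lower), where edgeR called 0. It also called SP5 ENSDARG00000076571, as did the likelihood ratio test. The cause of these differences was not tested. Adding 0.5 or 5 counts moved the median ratios of Otx over Gbx and Otx over En1 by less than 1 SD between libraries, and scaling by total counts changed the median Cnt spread of the members from 3.99 to 3.47 times. The low counts of otx2a limit the precision at the midbrain side, and those of en1a and EN2 ENSDARG00000026599 limit it for the Engrailed genes. The precision of EN2 ENSDARG00000038868 is limited by its dependence on Cnt 2.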
